A study of Mus musculus with 288 samples.

Results

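The 10 transcription factors of naive pluripotency described here are Nanog, Klf2, Klf4, Klf5, Esrrb, Tfcp2l1, Tbx3, Prdm14, Zfp42 (Rex1) and Nr0b1 (Dax1). They are a list of names and 10 of the 54232 genes in the deposited table. Their transcripts were followed in single mouse embryonic stem cells (mESCs) of the line E14, strain 129/Ola, with no genetic change named in the labels. Cells labelled D0 (0 h) were in medium with LIF and 2i, the inhibitors CHIR99021 of GSK3 and PD0325901 of MEK. Cells labelled D1 (24 h) and D2 (48 h) were in serum and LIF without the inhibitors, so LIF was present under all 3 labels. The RNA came from scNMT-seq, which also reads methylation and accessibility of the DNA of the same cell, and only the RNA was analysed here. Of 96 wells per label, 90, 50 and 93 cells labelled D0, D1 and D2 were kept by limits of over 200000 reads, over 2000 genes and a mitochondrial share of reads under 0.15.

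Naive pluripotency is the state of the pre-implantation epiblast, and in culture it is held by a network of transcription factors that support each other's expression. LIF acts through STAT3, which activates Klf4 and Tfcp2l1, while inhibition of GSK3 relieves the repressor TCF7L1 from Esrrb, Klf2, Nanog and other targets. Inhibition of MEK blocks ERK signalling, which drives cells out of the naive state, and serum with LIF permits a mixture of naive and more advanced cells.

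For each label 1 culture and 1 plate are known, and time, culture, plate and any difference of cell line cannot be told apart. The cells of a label do not replicate it, so differences are given without a test. A pair of properties of the plates bears on every value below. Reads of Hprt, an enzyme of purine salvage, were present in 48 of the 50 D1 cells at a mean of 207 CPM (the reads of a gene per 1000000 reads of the cell), against 3.08 CPM in D0 and 2.68 CPM in D2, although the labels name the same line. The E14Tg2a subline of E14 is known to lack functional Hprt, and the labels do not name a subline. Each difference below between D1 and another label therefore cannot be told apart from one between lines. Of the cells labelled D1, 2 had no Hprt read, and values without them are given where they matter. Nearest by its whole transcriptome to the mean of another label were 3 cells of D0 and 2 of D1, all closest to D2. Depth also differed, with median totals of 1610758.5, 7956161.5 and 2162090 reads in D0, D1 and D2. After each cell was thinned to 200000 reads, a median of 7793.5 genes was detected per D0 cell, of 8035 per D1 cell and of 3945 per D2 cell. Shares of cells below are at this equal depth, where 1 read is worth 5 CPM, and their exact (Clopper-Pearson) 95% intervals cover counting error only, since reads carry no molecular identifiers. In RNA from 1 cell, less RNA of a gene and less capture of it give the same loss of reads. The study describes a distinct cluster among its 48 h cells, with possible signs of cellular stress. Such cells were not separated within D2 here.

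RefSeq promoter windows (250 bases before and 50 after the start, build GRCm38.p6) were found for 7 of the 10 genes, as 9 windows. The windows of 4 genes are shown because they span the range of CpG content, the substrate of the methylation the study followed, and because the 4 genes differ in how long their reads persisted. Lower case is used throughout, with every CpG in capitals, 5′ to 3′ on the strand of the gene. Klf4 lies at chr4:55532426-55532725 on the minus strand, the first Nanog window at chr6:122707239-122707538 on the plus strand, Tfcp2l1 at chr1:118627695-118627994 on the plus strand and Zfp42 at chr8:43306960-43307259 on the minus strand.
Klf4: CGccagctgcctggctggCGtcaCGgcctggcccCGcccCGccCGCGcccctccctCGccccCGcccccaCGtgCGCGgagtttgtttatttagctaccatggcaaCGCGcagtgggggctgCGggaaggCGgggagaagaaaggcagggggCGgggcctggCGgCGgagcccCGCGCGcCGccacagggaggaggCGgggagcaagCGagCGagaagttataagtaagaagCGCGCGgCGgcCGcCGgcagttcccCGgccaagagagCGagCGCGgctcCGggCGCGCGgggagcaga
Nanog: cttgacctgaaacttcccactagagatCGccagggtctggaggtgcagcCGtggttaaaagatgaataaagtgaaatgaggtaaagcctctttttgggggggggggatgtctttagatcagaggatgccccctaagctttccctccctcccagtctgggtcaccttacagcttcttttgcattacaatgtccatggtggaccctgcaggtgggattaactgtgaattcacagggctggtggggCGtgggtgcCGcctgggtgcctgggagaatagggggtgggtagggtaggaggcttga
Tfcp2l1: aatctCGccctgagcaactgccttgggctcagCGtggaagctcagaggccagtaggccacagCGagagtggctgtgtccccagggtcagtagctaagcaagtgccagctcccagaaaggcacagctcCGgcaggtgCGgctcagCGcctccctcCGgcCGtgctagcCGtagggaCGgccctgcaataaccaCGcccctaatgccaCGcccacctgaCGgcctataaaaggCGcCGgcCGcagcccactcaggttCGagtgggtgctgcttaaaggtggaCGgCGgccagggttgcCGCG
Zfp42: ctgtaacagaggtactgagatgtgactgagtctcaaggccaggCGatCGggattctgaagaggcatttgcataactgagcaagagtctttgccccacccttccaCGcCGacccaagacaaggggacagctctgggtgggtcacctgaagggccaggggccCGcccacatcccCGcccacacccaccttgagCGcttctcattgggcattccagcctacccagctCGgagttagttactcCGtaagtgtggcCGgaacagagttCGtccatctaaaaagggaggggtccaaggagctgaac
The Klf4 window holds 40 CpGs and that of Klf2 32, more than 96.1% and 90.5% of the 32851 windows of all genes, whose median is 7. Tfcp2l1 holds 21, Nr0b1 14, Zfp42 11 and each Esrrb window 7. Both Nanog windows hold 4. The KLF site GGGNGTG, searched on both strands, lies in 6 of the 9 windows, both of Nanog, 1 of the 2 of Esrrb and those of Tfcp2l1, Zfp42 and Nr0b1, and in 29.2% of all windows. In Nanog it starts at bases 241 and 275 of the window shown, in Tfcp2l1 at 191 and 205, and in Zfp42 at 177. The Klf4 and Klf2 windows have no match to it. Klf2 lies on chromosome 8, Klf5 on 14, Esrrb on 12, Tbx3 on 5, Prdm14 on 1 and Nr0b1 on X. The octamer ATGCAAAT, the site of OCT4, was found in Zfp42 alone among the 9, at base 65 (1.74% of all windows), and the TATA box TATAAA in Tfcp2l1 and Nr0b1 (13.6% of all). The ESRRB half-site AAGGTCA (4.72% of all windows), the STAT site TTCCNGGAA (1.15%) and the TCF site CTTTGAT (3.73%) were not in any of the 9.

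At D0 the network was read in nearly every cell. Per kilobase of exon, the mean level was highest for Zfp42 at 476 CPM per kb, followed by Nanog at 218 and Tfcp2l1 at 169 CPM per kb. Klf2 (60.1), Nr0b1 (58.6), Klf5 (39.9), Esrrb (32.7), Klf4 (28.2), Tbx3 (21.2) and Prdm14 (16.7 CPM per kb) followed. Of these genes 8, all but Prdm14 and Nr0b1, had a read in 93.3% to 100% of cells. By D1 the order per kb was Zfp42 (193), Nr0b1 (179), Nanog (29.98) and Klf5 (22.4 CPM per kb), and Tfcp2l1 had gone from position 3 to position 8, at 5.50 CPM per kb. At D2 Zfp42 stood at 681 CPM per kb and Klf4 was last at 1.59. Apart from Tfcp2l1 and Klf2 in D0, neighbours in these orders overlapped within 1 SD between cells.

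The spread between cells relative to the mean was larger for most factors after release. In D0 the SD was 0.33 of the mean for Tfcp2l1, 0.36 for Zfp42 and 0.47 for Nanog, and was above the mean only for Nr0b1 (1.08) and Prdm14 (1.26). In D1 this ratio exceeded that of D0 for 9 factors, all but Nr0b1 (0.81), and in D2 for all 10, from 0.66 for Zfp42 to 4.74 for Prdm14. Of all genes compared with a read under both labels, 44.1% had a higher ratio in D1 and 91.5% in D2, so nothing is read from the D2 count. The SD itself was lower in D1 than in D0 for 8 of the 10 factors (36% of genes had a higher SD) and higher in D2 for 5 (74.5% of genes). These 8 factors had a higher ratio in D1 with a lower SD.

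Relative to D0, mean CPM in D1 was at least 2-fold lower for 8 of the 10 factors, where 29% of the 12937 genes compared were as much lower. Klf5 was within 2-fold by mean, and Nr0b1 was the 1 factor at least 2-fold higher, where 19.1% of genes were. The median log2 ratio of the 10 factors was -2.51, and that of all genes -0.26. In D2, 6 factors were at least 2-fold lower than in D0 (31.9% of 11338 genes), Nr0b1 was again higher by mean (13% of genes) though its median was lower (56.6 against 71.3 CPM), and Nanog, Esrrb and Zfp42 were within 2-fold by mean. By median, Nanog (120 against 445 CPM in D0) and Esrrb (24.0 against 199 CPM) were past the 2-fold limit. The median log2 ratios were -2.08 for the factors and -0.30 for all genes. Both comparisons share the D0 cells. Between D1 and D2, 2 of the 9 factors compared were lower in D2, Klf4 and Klf5, where 26% of 12393 genes were. Nanog, Klf2, Esrrb, Tfcp2l1 and Zfp42 were higher in D2 by mean (19.1% of genes), though the median of Tfcp2l1 went from 32.1 CPM to 0 and that of Esrrb from 19.8 to 24.0 CPM. Tbx3 and Nr0b1 were neither. Prdm14 was below the limits for this comparison, which were a read in at least 20% of cells and a mean of at least 1 CPM under either label. The plot of log2 ratios shows that Tfcp2l1 was farthest below D0 in D1 and Klf4 in D2.

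**Figure D1:**
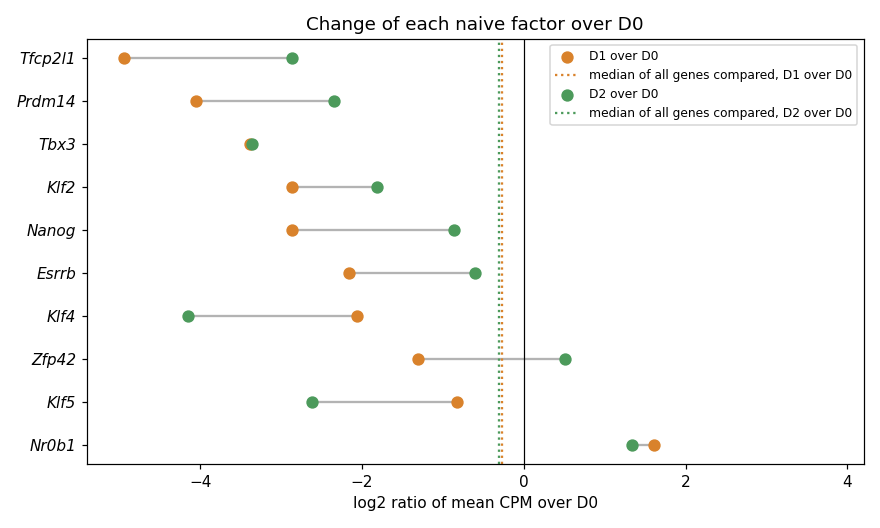
Horizontal axis, log2 ratio of mean CPM over D0; rows, the 10 factors; orange points, D1 (50 cells), green points, D2 (93 cells), each over 90 cells of D0; dotted lines, the median of all genes compared (-0.26 and -0.30). Tfcp2l1 is at -4.94 in D1 and -2.86 in D2, Klf4 goes from -2.07 to -4.15, and Nr0b1 lies right of 0 in both.

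Of the Krüppel-like factors, zinc-finger activators with overlapping targets, Klf4 was the farthest below D0 in D2. In D0 it ranged from 0 to 475 CPM with a median of 70.02 CPM, in D1 from 0 to 132 CPM with a median of 10.4, and in D2 from 0 to 118 CPM with a median of 0. The ranges overlap, yet 2 of 93 cells in D2 reached the D0 median. In the order D0, D1, D2 the mean (± SD between cells) was 85.9 ± 76.3, 20.5 ± 26.1 and 4.84 ± 18.8 CPM, which is 4.19-fold and 17.7-fold lower than D0. The share of cells with a Klf4 read was 93.3% (interval 86.05% to 97.5%), 66% (51.2% to 78.8%) and 10.8% (5.28% to 18.9%). In D2, 5 cells held 85.5% of the summed Klf4 CPM.

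Klf5 had a read in nearly every D1 cell and in fewer D2 cells. Its lowest, median and highest cells were at 0, 197 and 558 CPM in D0, at 0, 83.9 and 708 CPM in D1, and at 0, 7.72 and 443 CPM in D2. In D1 1 cell exceeded every D0 cell, and 10 of 50 reached the D0 median, against 1 of 93 in D2. Mean levels were 207 ± 114, 117 ± 116 and 33.7 ± 61.1 CPM, so that D2 was 6.15-fold below D0 and 3.46-fold below D1. D1 was 1.78-fold below D0, within the 2-fold limit, but it was past that limit by median CPM (log2 ratio -1.22), without a filter on cells (-1.40) and in plate columns 7 to 12 (-1.48, against -0.28 in columns 1 to 6). A read was found in 97.8% and 98% of cells in D0 and D1 and in 52.7% (42.1% to 63.1%) in D2.

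Klf2, a factor that PD0325901 is known to stabilise as a protein, was lowest in D1. Cells ranged from 0 to 330 CPM around a median of 102 CPM in D0, from 0 to 75.04 CPM around 5.98 CPM in D1, and from 0 to 260 CPM around 12.7 CPM in D2. No D1 cell reached the D0 median, and 9 D2 cells did. The means of 111 ± 63, 15.2 ± 21.2 and 31.7 ± 48.4 CPM put D1 7.29-fold and D2 3.51-fold below D0. The log2 ratio of D1 over D0 was -2.87, and -2.06 with reads summed over cells and TMM scaling. D2 was 2.08-fold above D1, just past the 2-fold limit, and with 1 cell left out the log2 ratio was as low as 0.94, under that limit. Shares with a read were 97.8%, 52% (37.4% to 66.3%) and 58.1% (47.4% to 68.2%), with overlapping intervals in D1 and D2.

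Tfcp2l1, a CP2-family factor downstream of LIF and STAT3, was the factor farthest below D0 in D1. The lowest D0 cell was at 224 CPM, the median at 1565 and the highest at 3199.7 CPM. In D1 the corresponding values were 0, 32.1 and 390 CPM, and 47 of 50 cells lay below every D0 cell. In D2 the lowest and the median cell were at 0 and the highest at 4751 CPM, above every D0 cell, while 81 of 93 cells lay below the lowest D0 cell. The mean of 1598 ± 533 CPM in D0 was 30.8-fold above that of D1 (51.9 ± 73.2 CPM) and 7.26-fold above that of D2 (220 ± 680 CPM). The D2 mean was 4.24-fold above that of D1, but 5 cells held 62.5% of the summed CPM, the median was lower, and the share with a read went from 78% (64.04% to 88.5%) to 36.6% (26.8% to 47.2%), so no order of D1 and D2 is read from it. The log2 ratio of D2 over D1 was 0.08 in plate columns 1 to 6 and 3.36 in columns 7 to 12. In D2, 6 cells reached the D0 median.

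Nanog, a homeodomain protein at the centre of the network, was low in D1 and broad in D2. It ranged from 0 to 1178 CPM in D0 with a median of 445 CPM, from 0 to 711 CPM in D1 with a median of 13.9, and from 0 to 2019 CPM in D2 with a median of 120 CPM. In D1, 2 cells reached the D0 median, and in D2 18 did, of which 4 exceeded every D0 cell. Means were 489 ± 228, 67.2 ± 139 and 268 ± 391 CPM. The 2 D1 cells without an Hprt read were at 504 and 711 CPM and were the 2 that reached the D0 median, and without them the D1 mean was 44.7 CPM. The log2 ratio of D1 over D0 was -2.31 in plate columns 1 to 6 and -3.76 in columns 7 to 12. D2 was above D1 by a log2 ratio of 2.00 with all cells and 2.58 without these 2. The share with a read was 98.9%, 64% (49.2% to 77.1%) and 72.04% (61.8% to 80.9%) in D0, D1 and D2. The table also lists the pseudogenes Nanog-ps1 and Nanog-ps2, among which reads could have been split.

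Esrrb, an orphan nuclear receptor and direct target of TCF7L1 repression, resembled Nanog in its means. Cells of D0 lay between 0 and 538 CPM with a median of 199, those of D1 between 0 and 331 CPM with a median of 19.8, and those of D2 between 0 and 2087 CPM with a median of 24.0 CPM. In D2, 7 cells exceeded every D0 cell, and 32 had no read at equal depth. Mean levels were 198 ± 111, 44.3 ± 62.4 and 130 ± 299 CPM, 4.47-fold lower in D1 and 1.52-fold lower in D2 than in D0. Without the 2 D1 cells nearest to D2 the D1 mean was 39.2 CPM. The mean was 2.93-fold higher in D2 than in D1 while the share with a read was lower, at 65.6% (55.02% to 75.1%) against 84% (70.9% to 92.8%), and 5 D2 cells held 49.04% of the summed CPM, so no order is read between them.

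**Figure D2:**
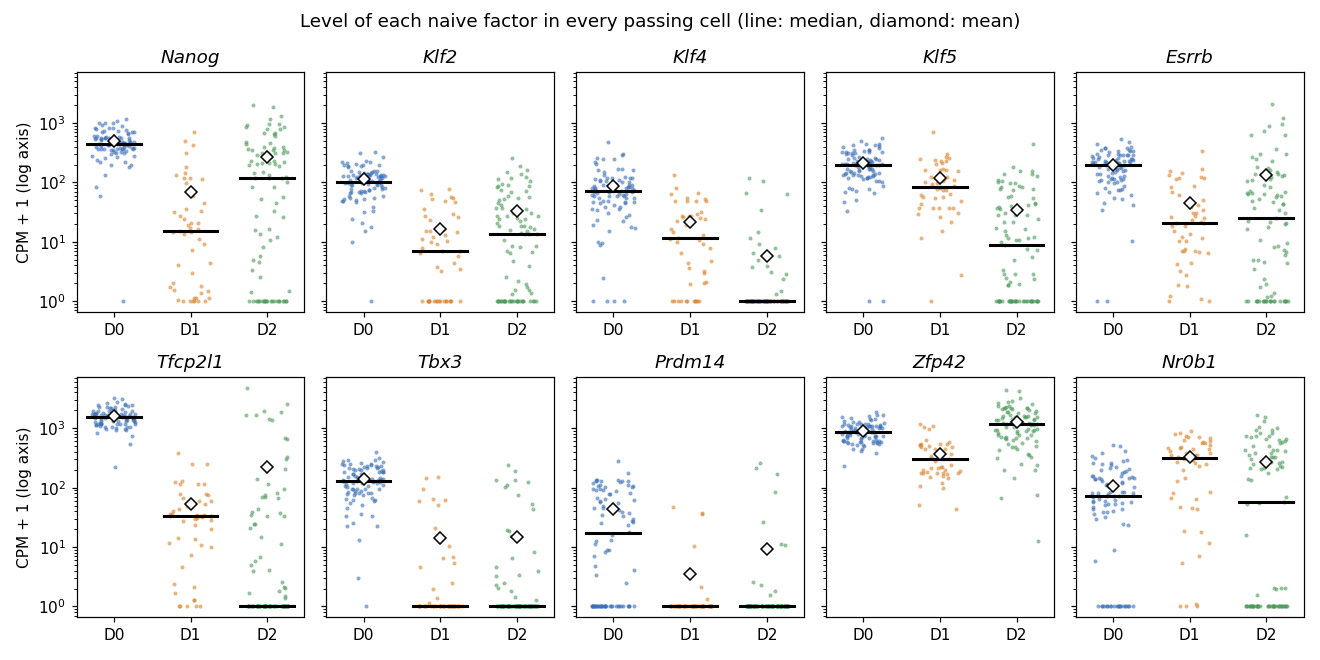
Each point is 1 cell, with CPM + 1 on a log axis, in 90, 50 and 93 cells labelled D0, D1 and D2; a line marks the median and a diamond the mean. For Tfcp2l1, 47 D1 cells and 81 D2 cells lie under the lowest D0 cell at 224 CPM, and in Klf4, Tfcp2l1, Tbx3 and Prdm14 the D2 median is at 0.

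Tbx3 and Prdm14 were the factors found in the fewest D1 cells. Tbx3, a T-box factor that supports self-renewal, ranged from 0 to 392 CPM in D0 (median 130 CPM), from 0 to 152 CPM in D1 and from 0 to 236 CPM in D2, with medians of 0 in both. Means were 141 ± 80.2, 13.5 ± 34.3 and 13.7 ± 41.5 CPM, 10.4-fold and 10.3-fold below D0. Shares with a read were 97.8%, 24% (13.1% to 38.2%) and 21.5% (13.7% to 31.2%), and the D2 mean was 1.02-fold that of D1 with overlapping intervals of the share. The table also lists the antisense genes Tbx3os1 and Tbx3os2, and whether counting used strand is not given in the sources used here.

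Prdm14, a PR-domain protein known to repress de novo methyltransferase genes, was already uneven in D0. Its lowest, median and highest D0 cells were at 0, 16.0 and 277 CPM, and 58.9% (48.0% to 69.2%) had a read. In D1 a read was found in 4 of 50 cells (8%, 2.22% to 19.2%) and in D2 in 7 of 93 (7.53%, 3.08% to 14.9%). Means of 42.7 ± 53.9, 2.58 ± 9.57 and 8.40 ± 39.8 CPM rest on few cells, since 5 cells held 99.7% of the summed CPM in D1 and 96.9% in D2. D1 was 16.6-fold and D2 5.09-fold below D0.

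Zfp42, a zinc-finger protein used as a reporter of the naive state, had a read in every cell under every label. The lowest, median and highest cells were at 228, 853 and 1868 CPM in D0, at 42.5, 304 and 1182 CPM in D1, and at 11.6, 1190.1 and 4465 CPM in D2. In D1, 22 of 50 cells lay below every D0 cell. In D2, 6 lay below and 19 above every D0 cell, and the mean of 1281 ± 849 CPM was 1.43-fold that of D0 (896 ± 325 CPM) and 3.54-fold that of D1 (362 ± 263 CPM). The 2 D1 cells without an Hprt read were at 1107 and 1182 CPM, the latter the highest in D1. Without them the D1 mean was 330 CPM.

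Nr0b1, an X-linked nuclear receptor that lacks the usual DNA-binding domain, was higher in D1. It ranged from 0 to 521 CPM in D0 (median 71.3 CPM), from 0 to 890 CPM in D1 (median 316 CPM), where 13 of 50 cells exceeded every D0 cell, and from 0 to 1639.9 CPM in D2 (median 56.6 CPM), where 19 of 93 did. Means of 106 ± 115, 325 ± 264 and 267 ± 369 CPM put D1 3.06-fold and D2 2.52-fold above D0. In D2 the median and the share with a read, 52.7% (42.1% to 63.1%), were both below those of D0, whose share was 77.8% (67.8% to 85.9%), so the D2 mean gives no order over D0. In D1 the share was 88% (75.7% to 95.5%). The 2 D1 cells without an Hprt read were at 738 and 800 CPM, among the 13 above every D0 cell. Without them the D1 mean was 306 CPM.

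The factors were ordered by the share of cells with a read under each label, whatever their share in D0. In D1 the order ran from Prdm14 (8%), Tbx3 (24%), Klf2 (52%), Nanog (64%), Klf4 (66%), Tfcp2l1 (78%) and Esrrb (84%) to Nr0b1 (88%), Klf5 (98%) and Zfp42 (100%). Neighbours in this order have overlapping intervals. Against its own share in D0, Tbx3 was lower by the most (a difference of -73.8 percentage points), before Prdm14 (-50.9), and Nr0b1 was higher (10.2). By the size of the fall in mean CPM, Tfcp2l1 came before Prdm14, Tbx3, Klf2 and Nanog, while 39 of 50 D1 cells kept a read of Tfcp2l1. In D2 the order of shares was Prdm14, Klf4 (10.8%), Tbx3, Tfcp2l1 (36.6%), then Klf5 and Nr0b1, both at 52.7%, Klf2, Esrrb, Nanog (72.04%) and Zfp42. Klf4 thus went from position 5 to position 2. Parts of these orders depend on the number of reads asked for. With at least 5 reads required, the D1 shares of Klf4 and Nanog were 32% and 36% and those of Esrrb and Tfcp2l1 46% and 54%, so that each pair changed places, and Nr0b1 (84%) and Klf5 (86%) kept theirs. In D2 Klf4 (4.30%) then came before Prdm14 (5.38%), and Klf2 and Klf5 were both at 34.4%, below Nr0b1 (52.7%). A share at least 20 percentage points below D0 was found for 6 factors in D1, where 11.3% of all genes compared were as much lower, and for 9 factors in D2, all but Zfp42, where 66.1% were. The number of factors in D2 therefore stands against a background in which most genes had a read in fewer cells.

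**Figure D3:**
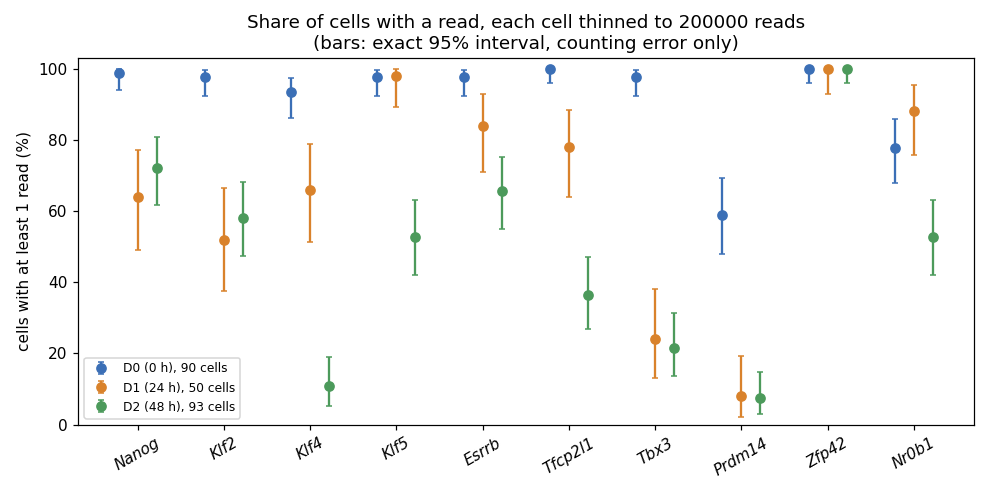
Share of cells with at least 1 read of each factor, in percent, with each cell thinned to 200000 reads; bars are exact 95% intervals for counting error in 90, 50 and 93 cells. Zfp42 stays at 100% under the 3 labels, Klf5 is at 98% in D1, and Klf4 is at 66% in D1 and 10.8% in D2.

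Counted per cell at equal depth, a D0 cell had a read of 9 factors at the median, a D1 cell of 7 and a D2 cell of 4. At least 8 factors were read in 87 of 90 cells in D0, 15 of 50 in D1 and 4 of 93 in D2. At most 5 were read in 1, 11 and 63 cells. All 10 were present in 37 D0 cells, 3 D1 cells and 0 D2 cells, and the lowest cell had 3 in D0 and 2 in D1 and D2. Klf4, Tbx3 and Prdm14, a trio chosen after the values were seen, were jointly absent in 1 D0 cell, 15 D1 cells (30%) and 63 D2 cells (67.7%). Within D2 the number of factors moved with the number of genes detected at equal depth (Spearman rho 0.56 over 93 cells), while in D1 rho was -0.18 over 50 cells and in D0 0.13 over 90, and the part of detection in the D2 counts was not tested.

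**Figure D4:**
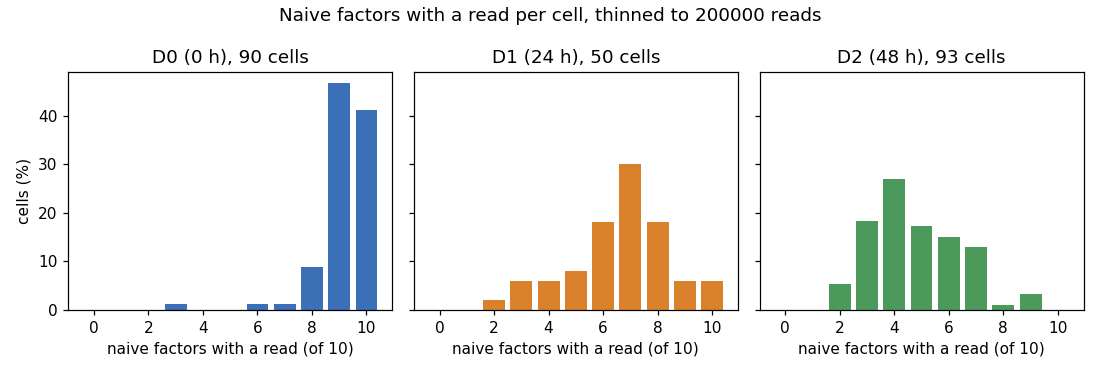
Percent of cells (vertical axis) by the number of the 10 factors with a read at 200000 reads (horizontal axis), in 90 D0, 50 D1 and 93 D2 cells. D0 is concentrated at 9 and 10 factors (42 and 37 cells), D1 has its highest bar at 7 (15 cells) and D2 at 4 (25 cells).

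Spearman correlations over cells of 1 label, on log2(CPM + 1) at equal depth, had a mean over the 45 pairs of 0.26 in D1 (50 cells), 0.078 in D0 (90 cells) and 0.067 in D2 (93 cells). The mean correlation of the factors with other genes read in at least 50% of cells was 0.025, 0.033 and 0.015 in D1, D0 and D2. Of the 45 pairs, 21 reached 0.3 in D1, against 1 in D0 (Esrrb with Tbx3, 0.31) and 2 in D2 (Tfcp2l1 with Prdm14, 0.33, and Nanog with Zfp42, 0.30). Among all pairs of other genes read in at least 50% of cells, 6.49%, 1.04% and 0.565% reached 0.3 in D1, D0 and D2, and of pairs of a factor with such a gene 4.17%, 1.46% and 0.435% did. The factors were not held to this limit, and at full depth Tbx3 was read in 34% and Prdm14 in 12% of D1 cells. Below it in D2 were Klf4 (20.4%), Tfcp2l1 (47.3%), Tbx3 (26.9%) and Prdm14 (11.8%). By Pearson r the D0 mean was 0.16 and 9 D0 pairs reached 0.3, against 21 pairs and a mean of 0.26 in D1, so the distance between D0 and D1 was smaller on that measure. The cells of a label share a plate, and fewer cells give wider scatter of rho. In D1 the mean was 0.30 in the 24 cells of plate columns 1 to 6 and 0.22 in the 26 of columns 7 to 12, 0.24 without the 2 cells that have no Hprt read and 0.26 without the 2 nearest to D2. The mean level of the 10 factors had a rho of -0.051 with detected genes in D1, of 0.24 in D0 and of 0.44 in D2.

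Tbx3 and Nanog had the highest mean rho with the other 9 factors in D1, 0.37 and 0.36. The highest pairs were Tbx3 with Zfp42 (0.51), Nanog with Tbx3 (0.49), Nanog with Zfp42 (0.48) and Nanog with Tfcp2l1 (0.46). Without the 2 D1 cells that have no Hprt read these were at 0.43, 0.40, 0.41 and 0.44, and Tfcp2l1 with Prdm14 (0.47) was above them, so the ranking of pairs rests on those 2 cells. The Nanog and Zfp42 pair differed between the sides of the D1 plate, with a rho of 0.82 in columns 1 to 6 and 0.19 in columns 7 to 12, while Tbx3 with Zfp42 was at 0.50 on both. Klf2 with Klf5 (-0.13) and Prdm14 with Nr0b1 (-0.19) were the 2 negative pairs in D1. Pairs with Prdm14 in D1 rest on 4 cells with a read of it. The pair of Nanog and Zfp42 was at 0.295 in D0 and 0.305 in D2. In D2, 2 pairs were at or below -0.2, Klf4 with Zfp42 (-0.24) and Tbx3 with Nr0b1 (-0.22).

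Joint detection at equal depth puts these relations in numbers of cells. All 12 D1 cells with a Tbx3 read also had a Tfcp2l1 read, and of the 38 without Tbx3 27 did. Nanog was read in 29 of the 39 D1 cells with Tfcp2l1 and in 3 of the 11 without. In D2 all 7 cells with a Prdm14 read had a Tfcp2l1 read, against 27 of the other 86, and 19 of the 20 cells with Tbx3 had Nanog, against 48 of the other 73. The D2 levels of Tfcp2l1, Tbx3, Prdm14 and Nanog had a rho of 0.47, 0.27, 0.16 and 0.070 with detected genes. The part of detection in these joint counts was not tested. Esrrb was read in 45 of the 67 D2 cells with Nanog (67.2%) and in 16 of the 26 without (61.5%).

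**Figure D5:**
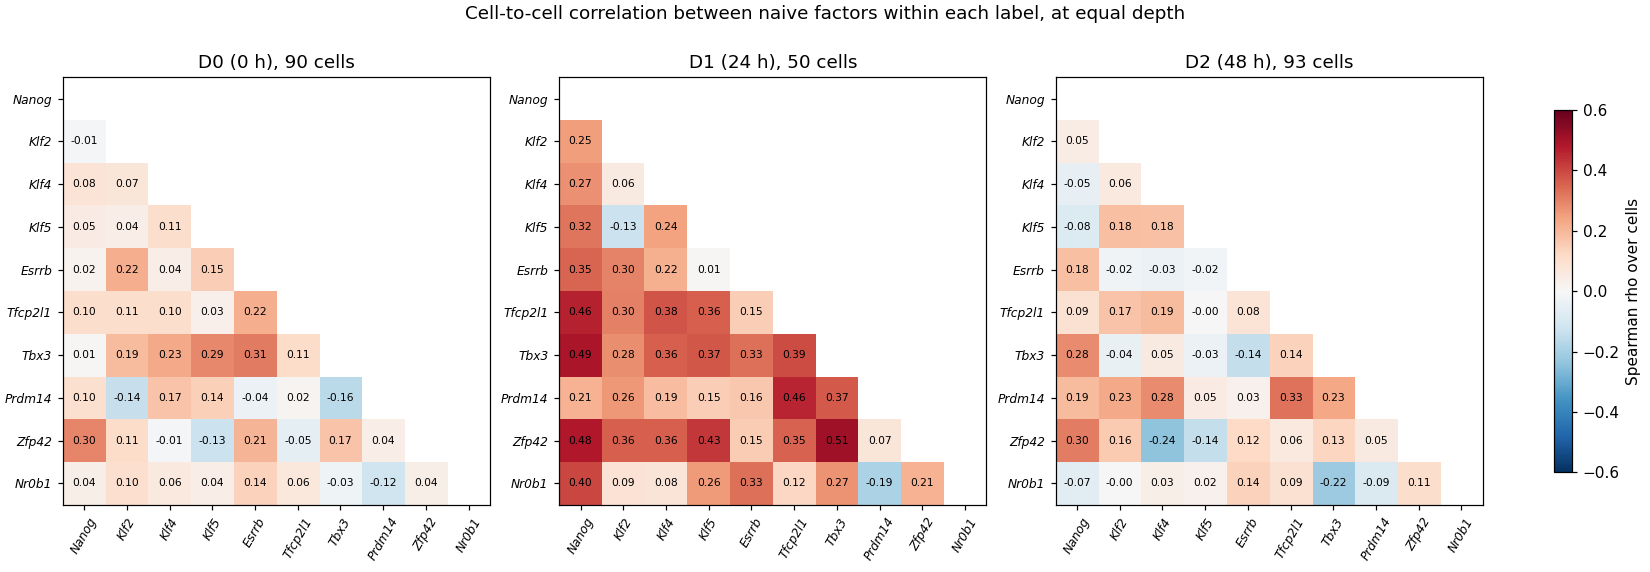
Spearman rho over cells for each pair of the 10 factors, on log2(CPM + 1) with cells thinned to 200000 reads, in D0 (90 cells), D1 (50) and D2 (93); red is positive and blue negative. Of 45 pairs, 43 are above 0 in the D1 panel, 36 in D0 and 30 in D2, with means of 0.26, 0.078 and 0.067.

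Outside the 10 factors, the gene most like their mean level in D1 was Slc2a3, a glucose transporter, with a rho of 0.64 over 50 cells, followed by Cdc5l (0.57), Ak4 (0.55), Hmces (0.55) and Zfp57 (0.53). Slc2a3 itself averaged 912 CPM at 0 h, 160 CPM at 24 h and 374 CPM at 48 h. In D0 the nearest genes were Brwd1 (0.47), Phc1, Dync1h1, Wdr5 and Mov10, and in D2 Cs (0.45), Jam2, Lap3, Tfdp2 and Map1lc3a. No gene was among the 5 nearest under more than 1 label, and the lists were drawn from 7575, 8062 and 2982 genes compared in D0, D1 and D2.

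Of 17 other genes associated with the naive state, 8 were at least 2-fold lower in D1 than in D0 and 4 higher, and 5 were lower and 4 higher in D2. For these and the following lists the background is the share of all genes compared, 29% lower and 19.1% higher in D1, 31.9% lower and 13% higher in D2, each over D0, and nothing is read from counts near it. Spic, an ETS factor, went from 104 ± 101 CPM in D0 to 0.77 ± 5.39 in D1 and 1.14 ± 6.81 CPM in D2. Fbxo15, an F-box gene known as a target of OCT4 and SOX2, was at 405 ± 187, 34.7 ± 76.5 and 261 ± 448 CPM, and Tcl1 at 318 ± 242, 38.6 ± 48.5 and 243 ± 350 CPM. Dppa2 was at 280.5 ± 262 CPM in D2 against 65.5 ± 82.7 in D0, and Zfp281, a zinc-finger gene, at 16.1 ± 43.3 against 109.8 ± 101 CPM. Tet2, which oxidises methylated cytosine, was at 427 ± 953 CPM in D2 and 65.99 ± 80.4 in D1. Of 6 core pluripotency genes 0 were lower in D1 and 3 higher, led by Utf1 (371 ± 210 CPM against 41.8 ± 41.2 in D0) with the RNA-binding Lin28a (70.2 ± 61.01 against 22.3 ± 31.99) and the NODAL co-receptor Tdgf1 (732 ± 499 against 336 ± 180 CPM), and in D2 1 was lower, Sox2 (19.6 ± 34.2 against 65.05 ± 45.5 CPM), and 2 higher, among them Pou5f1, the gene of OCT4 (1524 ± 559 against 502 ± 184 CPM).

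Among genes of the signalling inputs, 5 of 14 were lower and 4 higher in D1, and 5 lower and 3 higher in D2. The genes named are those with the largest ratios of the list. Over D0 these were all higher, and genes lower than D0 had smaller ratios. The part of the inhibitors in these values was not tested. Dusp6, an ERK phosphatase, had means of 6.74 ± 20.9, 95.6 ± 84.8 and 64.7 ± 159 CPM in the order D0, D1, D2, and Egr1 at 0.75 ± 3.76, 22.4 ± 72.1 and 32.5 ± 108 CPM. Lef1, a WNT effector, was at 4.55 ± 12.7 in D0, 58.3 ± 78.9 in D1 and 3.96 ± 19.6 CPM in D2. Spry4, a feedback inhibitor of ERK signalling, was at 66.6 ± 161 CPM in D2 and 4.34 ± 13.5 in D0. Lower in D2 than in D1 were Spred1, another such inhibitor, at 2.29 ± 15.4 against 30.3 ± 28.9 CPM, and the repressor Tcf7l1 at 5.50 ± 13.96 against 30.1 ± 38.4 CPM. Of 12 formative and primed genes, 10 were compared in D1, with 5 higher and 0 lower, and 8 in D2, with 3 higher and 0 lower. From D1 to D2, 4 of 10 were lower and 1 higher, where 26% and 19.1% of genes were. Sall2, a zinc-finger gene, was at 0.062 ± 0.41, 9.35 ± 16.7 and 1.0 ± 8.85 CPM, and Zic2, of the ZIC family, at 1.06 ± 3.35, 17.8 ± 77.6 and 5.35 ± 35.6 CPM. Pou3f1, a POU-domain gene, was at 0.089 ± 0.58, 12.2 ± 15.2 and 0.41 ± 2.10 CPM. In D2 against D0, Otx2, a homeobox gene, was at 38.4 ± 93.8 against 12.7 ± 28.5 CPM and Grhl2, of the grainyhead family, at 40.01 ± 229 against 12.96 ± 31.3 CPM.

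Markers of other cell types were measured beside the factors. The 5 markers of 2-cell-like cells had no read under any label. The summed level of 6 primitive endoderm markers had a median of 0 under each label and reached at most 181, 21.7 and 93.2 CPM in a cell of D0, D1 and D2, with Foxa2 at 0 in all. For 5 mesoderm markers the maxima were 90.1, 13.9 and 7.25 CPM, and T had no read in D2. The sum of 4 ectoderm markers had a median of 13.1 CPM in D1 and 0 in D0 and D2, with maxima of 199, 94.8 and 91.9 CPM, and Pax6, which had no read in D0, averaged 9.02 ± 16.3 CPM at 24 h against 0.14 ± 0.78 CPM at 48 h. Nes, the other ectoderm gene compared, was at 9.68 ± 25.7, 9.59 ± 13.5 and 0.21 ± 1.22 CPM in the order D0, D1, D2. For 6 trophectoderm markers the median was 56.2, 5.80 and 0 CPM in D0, D1 and D2 and the highest cell 509, 972 and 5888 CPM, with Elf5 at 0 in D1 and D2 and Hand1 at 0 in D0, and the 2 compared were Tfap2c, at 29.99 ± 34.1, 7.0 ± 19.5 and 12.1 ± 48.01 CPM in the same order, and Krt8, at 60.4 ± 84.3, 20.6 ± 115 and 71.999 ± 578 CPM. The 6 fibroblast markers reached at most 15.5, 30.4 and 27.02 CPM, with Postn at 0 under every label. Thy1, the 1 compared, was at 0.065 ± 0.54, 2.12 ± 5.69 and 0.10 ± 0.63 CPM in D0, D1 and D2. The part of these cells in the values of the factors was not tested.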

How the data were processed

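RNA of 288 flow-sorted wells from scNMT-seq was used. The authors aligned reads with HISAT2 (GRCm38, per the submitters' processing notes) and deposited read counts for each gene, whole numbers that were taken as raw although the label of each sample refers to a normalized file. Cells were filtered on over 200000 reads, over 2000 genes and a mitochondrial share under 0.15. The study prints this last limit with a percent sign; read so, it leaves 1 cell, and read as a fraction, as here, 233, which is more than the study states. Counts were divided by the total of each cell (CPM), means gave cells equal weight, and ratios of means had no pseudocount. Genes were compared with a read in at least 20% of cells and a mean of at least 1 CPM under either label, and a call was a 2-fold difference. For shares and correlations cells were thinned at random to 200000 reads, with a pseudocount of 1 CPM in correlations and in the alternative ratios of medians. Passing totals ran from 202157 to 43336922 reads, so a gene at a few CPM was detectable in deep cells and not in shallow ones. No 2 cells had identical counts.

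With 1 culture per label no test was run and no p-value is given. All 10 factors are named. Of other lists, up to 3 genes per comparison with the largest ratio, and the 5 genes nearest to the factors in each label, are named. The members and lists were chosen with earlier results of these data known. Python 3.11.15, numpy 2.4.6, pandas 2.3.3, scipy 1.17.1, matplotlib 3.10.9 and edgeR 4.0.16 in R 4.3.3 (scaling factors) were used. Exon lengths came from GENCODE and promoters from RefSeq. Methylation and accessibility were not analysed here.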

Additional observations from a re-analysis of the deposited data

How the results depend on the processing

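Alternatives were other filters on cells, weights, scalings and pseudocounts, thinning, detection limits, each side of the plate, other limits for genes, each cell left out in turn, and leaving out cells without Hprt reads or, chosen after seeing the data, cells nearest to another label. The number of factors lower in D1 than in D0, 8, stayed between 7 and 9, and that lower in D2 than in D0, 6, between 5 and 8 (8 by median CPM, where 55.4% of all genes were lower). Of 5 factors higher in D2 than in D1, 4 to 5 were found with each cell left out, where no share was computed. There were 6 among all genes with a mean of 1 CPM (23.5% of genes). There were 4 without a filter on cells (28.9%), after thinning (18.4%) and with 10 CPM added (9.32%). Summed reads also gave 4, unscaled (18.6%), with TMM (20.1%) or with median-of-ratios factors (21.2%). There were 3 in plate columns 1 to 6 (18.2%), 2 by median CPM (2.29%) and 1 by a fold limit of 4 (5.35%). Of 2 factors lower in D2 than in D1 there were 4 by median CPM (53.4%) and 1 by the fold limit of 4 (12.9%). With median CPM the log2 ratio of Nr0b1 in D2 over D0 was -0.33 and that of Tfcp2l1 in D2 over D1 -5.05, both reversed in direction. Medians had 1 CPM added, and since the D2 median of Tfcp2l1 is 0 the size of -5.05 is set by that pseudocount. The 23 called ratios kept their direction in the other 366 of 368 alternatives. Their size was less stable. It differed by over 1.5 times in 70 of 345 alternatives, 17 of them by median CPM, 11 without a filter on cells, 6 and 8 in plate columns 1 to 6 and 7 to 12, 7 with 10 CPM added, 4 with reads summed over cells, and 7 each with summed reads scaled by TMM or by median-of-ratios factors, which change the weights of cells and the scaling together. A further 2 were without the D1 cells that have no Hprt read, and 1 was with a cell left out. With at least 5 reads required the median number of factors per cell in D1 was 5 in place of 7, and the cause was not tested. Of the alternatives of the shares, 162 lay inside the interval of the share and 28 outside. The mean correlation in D0 was 0.16 by Pearson r in place of 0.078. Scaling with TMM raises all log2 ratios over D0 by 0.21 (D1) and 0.28 (D2), and median-of-ratios scaling by 0.10 and 0.23. Means of log-normalized values were compared by direction alone. Cells with few reads limit what can be said of Prdm14 and Tbx3 in D1 and D2. No paired analysis was possible because a label stands for 1 culture, with no replicate number to pair.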
